A study of Mus musculus with 8 samples.

Results

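Among nucleus pulposus (NP) cells of the 8-week mouse disc, 946 cells carried at least 1 transcript count of the secreted ligand gene Wnt16, and this account describes them. They were chosen from the 8-week count matrix in steps. A barcode was kept with at least 500 genes, at least 1000 unique molecular identifiers (UMIs, the counted RNA molecules) and at most 15% mitochondrial UMIs. An NP cell then had at least 30 UMIs of Car3 (carbonic anhydrase 3) and at least 10 of Krt8, Krt18 and Krt19 together, a cell over the cycling limit (5 or more UMIs of Top2a, Mki67 and Birc5 together) was left out, and 1 UMI of Wnt16 made a cell a Wnt16 cell. The Wnt16 cells were 46.1% of the 2050 NP cells (exact binomial interval 44.0 to 48.3%) and stood among 6481 kept cells at 8 weeks and 13480 at both ages. They are compared with the other 1104 NP cells, which passed the same limits with 0 Wnt16 UMIs. The 127 cycling NP cells, 29 of them with Wnt16, entered no group.

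The nucleus pulposus is the hydrated core of the intervertebral disc. Its cells descend from the notochord, keep the notochord factor T (brachyury) and simple-epithelium keratins, and lay down an aggrecan-rich matrix. Wnt ligands are secreted lipid-modified proteins that act through Frizzled and LRP receptors, partly by stabilising beta-catenin. Wnt16 is known in the skeleton from cortical bone, where it restrains bone resorption, and from articular cartilage. The genes named with Wnt16 as marks of these cells are Ndnf, a secreted neurotrophic factor, Dlx5, a homeobox factor of skeletal development, and Fam181b, whose protein binds TEAD transcription factors.

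All mice were Tagln-CreERt2;R26tdTomato, in which the Tagln gene, active in contractile cells, drives a tamoxifen-inducible Cre that switches on tdTomato from Rosa26. Tamoxifen was given at P5 at both ages. Whole discs of lumbar levels L1 to L6 and tail levels T5 to T9 were digested and profiled on the 10x Chromium platform at 8 weeks (8Wk) and P10, with 4 listed samples per age. Each age has 1 matrix with no map from cells to samples, so animals, disc levels and samples could not be separated and nothing could be tested across samples. The effect of age cannot be told apart from that of the library. Cells are not replicates, and every interval covers counting error only.

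The promoter of Wnt16 is shown because that gene defines the cells, and the promoter of Fam181b because that gene had the largest ratio among the marker genes that passed the minimum count. Both windows come from RefSeq on GRCm38.p6 and run from 250 bases before the annotated start to 50 after it, on the plus strand, at chr6:22287977-22288276 for Wnt16 and chr7:93079629-93079928 for Fam181b. Capitals mark a CCAAT box (CCAAT) in Wnt16 and a TATA box read on the reverse strand (TATAAA, printed as TTTATA) in Fam181b. Both strands were searched in each case, and no hits overlapped.
Wnt16: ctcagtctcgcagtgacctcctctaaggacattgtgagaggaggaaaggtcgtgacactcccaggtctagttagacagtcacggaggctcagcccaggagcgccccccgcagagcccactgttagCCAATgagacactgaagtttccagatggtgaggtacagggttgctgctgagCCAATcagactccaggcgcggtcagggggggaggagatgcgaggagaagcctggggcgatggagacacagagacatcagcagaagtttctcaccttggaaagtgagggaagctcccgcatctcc
Fam181b: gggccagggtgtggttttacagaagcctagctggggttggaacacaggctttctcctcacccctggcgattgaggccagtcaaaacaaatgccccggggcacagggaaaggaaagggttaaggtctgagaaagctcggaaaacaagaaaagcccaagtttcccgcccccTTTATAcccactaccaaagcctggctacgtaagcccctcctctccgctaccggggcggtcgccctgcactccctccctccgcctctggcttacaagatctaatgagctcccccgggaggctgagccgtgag
Wnt16 held 2 CCAAT boxes, a motif present in 37.4% of 32544 promoter windows. Fam181b held 1 match to the TATA box letters, present in 13.6% of windows. That match lay at position -81 from the annotated start, on the reverse strand, and its role was not tested. A homeodomain core (TAATTA, 5.29% of windows), a T-box site (AGGTGTGA, 1.28%), a TCF/LEF site (ATCAAAG, 3.73%) and a FOXA site (TGTTTAC, 3.66%) were not among the letters of either window. Ndnf and Dlx5 had no entry in the promoter table. In the GENCODE annotation of the same build the protein-coding genes Wnt16, Ndnf and Dlx5 all lie on chromosome 6, at chr6:22288227-22298522 and chr6:65671590-65712326 on the plus strand and chr6:6877805-6882085 on the minus strand.

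The label of NP cells held against genes that the rule did not use. T was found in 100% of the Wnt16 cells at 1542 CPM (UMIs scaled to a total of 1000000 gene UMIs over the same cells), against 24.6% and 39.4 CPM in the 4304 kept 8-week cells outside the NP rule. Cd24a, a surface marker of NP cells, stood at 2479 CPM against 235, and Cdh2 (N-cadherin) at 305 against 13.5. Foxa2, a notochord factor, was at 3.15 CPM in the Wnt16 cells against 18.9 outside. Shh had 1 UMI and Noto, a notochord homeobox gene of the embryo, had 0 UMIs in all 946 cells. At the edges of the rule, 10 cells with 30 to 34 Car3 UMIs held 2 Wnt16 cells, and 4 cells with 25 to 29 held 0. Of 35 cells with 10 or 11 keratin UMIs 14 had Wnt16, and of 49 with 8 or 9 keratin UMIs just outside, 17 had it. Cells with 3 or 4 UMIs of the cycling genes numbered 17, 7 of them with Wnt16, and 15 with 5 or 6 held 4. The Wnt16 cells had a median of 382.5 Car3 UMIs and the other NP cells 267.

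Wnt16 itself was sparse and uneven. A Wnt16 cell had a median of 2 Wnt16 UMIs and at most 21. The gene stood at 1 UMI in 368 cells, at 2 in 211, at 3 in 102, at 4 to 9 in 229 and at 10 or more in 36. The cells with 4 to 9 held 45.0% of all their Wnt16 transcripts, those with 10 or more 16.0%, and those with a single UMI 13.1%. Full-depth Wnt16 was 142.6 CPM in the Wnt16 cells, 67.2 CPM over all NP cells and 14.8 CPM in cycling NP cells. Outside the NP rule it was 1.76 CPM, with a UMI in 2.07% of cells at a median depth of 13860 UMIs, against 16270 in the Wnt16 cells. Car3, which free RNA can carry into other droplets, stood at 22069 CPM in the Wnt16 cells and 286 CPM outside. Among cells low in Car3 and keratins that carried markers of endothelium (95 cells), macrophages (57) or neutrophils (24), Wnt16 had 0 UMIs, which allows a share of cells with a UMI of up to 3.16% in endothelial cells (median 11119 UMIs) and 5.26% in macrophages (median 8558 UMIs).

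The share of NP cells with Wnt16 fell under thinning but did not go up with the cells' own depth beyond 5000 UMIs. When every cell was thinned at random to 2000, 5000 or 10000 UMIs, 13.8%, 26.4% and 35% of NP cells kept a Wnt16 UMI. By their own depth, 31.8% of NP cells under 5000 UMIs had one, 50% of those with 5000 to 10000, 49.9% of those with 10000 to 20000, 42.1% of those with 20000 to 30000 and 45.3% of deeper ones. The other NP cells are cells in which Wnt16 was not detected at their depth, not cells shown to lack it. The groups themselves were of near-equal depth, with medians of 16270 UMIs in the Wnt16 cells and 17268 in the other NP cells, and 4031 and 4187 genes. Their median mitochondrial share was 2.75% and 2.90%, and 44 and 50 cells had a doublet score (Scrublet) over 0.25. Comparisons below use every cell thinned to 5000 UMIs, which kept 898 Wnt16 cells and 1001 other NP cells and left out 48 and 103 shallower ones.

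A gene was counted as higher or lower where its summed thinned counts differed by at least 1.5-fold with an exact interval clear of 1, which describes the cells of 1 library and is not a test. Of 7820 genes with at least 100 thinned UMIs, 97 (1.24%) were higher and 155 (1.98%) lower in Wnt16 cells, 252 (3.22%) in all. By the interval alone, 663 genes (8.48%) were above 1 and 889 (11.4%) below. At 2-fold, 11 were higher and 15 lower, and the median gene stood at a log2 ratio of -0.015. Without thinning, 402 genes were past 1.5-fold and 73.1% of them were lower, against 61.5% lower of the 252. Few genes were thus past 1.5-fold, and T (log2 ratio 0.12, 0.08 to 0.17) and Sox9 (0.015, -0.03 to 0.06) were not. Both groups had to pass the Car3 and keratin limits, and the other NP cells can hold undetected Wnt16 cells. Likeness between the groups is therefore in part set by the rule. Of the rule genes, Krt8 had -0.07, while thinned Car3 was at 18262 CPM with 0 Wnt16 UMIs and 28185 CPM with 4 or more.

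The marker genes Ndnf, Fam181b and Dlx5 were each at least 2-fold above the other NP cells. They were chosen with earlier results of these data known, so their ratios are a description. Ndnf was found in 44.5% of thinned Wnt16 cells and 23.2% of other NP cells, at 213 CPM against 97.9 CPM (log2 ratio 1.12, 0.97 to 1.28). Fam181b was found in 9.13% against 3.1%, at 24.1 CPM against 7.59 CPM (1.66, 1.12 to 2.24). Dlx5, with 93 UMIs in all and so under the minimum, was at 15.1 CPM against 5.00 CPM (1.60, 0.92 to 2.32) and was found in 5.90% against 2.5% of cells. None of the 3 is restricted to NP cells in this library. At full depth Ndnf was at 141 CPM in the Wnt16 cells, 64.2 in the other NP cells and 45.0 in cells with annulus chondrocyte markers, and Fam181b at 17.3, 6.12 and 0.23 CPM. Endothelial cells had 35.8 CPM of Fam181b, above the Wnt16 cells. Dlx5 was at 11.7 CPM in the Wnt16 cells, against 19.2 CPM over all cells outside the NP rule, 16.0 in cells with annulus chondrocyte markers, 33.0 with osteoblast markers and 53.8 with hypertrophic chondrocyte markers. In macrophages, which should lack Ndnf, 5.26% of cells had an Ndnf UMI at a median of 8558 UMIs.

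The marker genes also went together with the amount of Wnt16. Because they were chosen with earlier results of these data known, these steps too are a description. The levels below are thinned, and the cells are grouped by their Wnt16 UMIs at full depth: 0 (1001 cells), 1 (338), 2 to 3 (299) and 4 or more (261). Ndnf was at 97.9, 140, 221 and 300 CPM over these groups and in 23.2%, 33.7%, 46.5% and 56.3% of cells. Fam181b was at 7.59, 15.4, 27.4 and 31.4 CPM, and Dlx5 at 5.00, 8.88, 14.0 and 24.5 CPM. Median depth was 18525, 17697, 15950 and 16488 UMIs, and its part in these steps was not tested. Cells with 1 Wnt16 UMI lay between those with 0 and those with more, also at full depth, where Ndnf was at 108 CPM in cells with 1 UMI and 64.2 CPM in cells with 0. At full depth, 28.1% of Wnt16 cells and 54.7% of other NP cells had no UMI of Ndnf, Dlx5 or Fam181b, and all 3 were found together in 40 Wnt16 cells and 13 other cells.

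**Figure D1:**
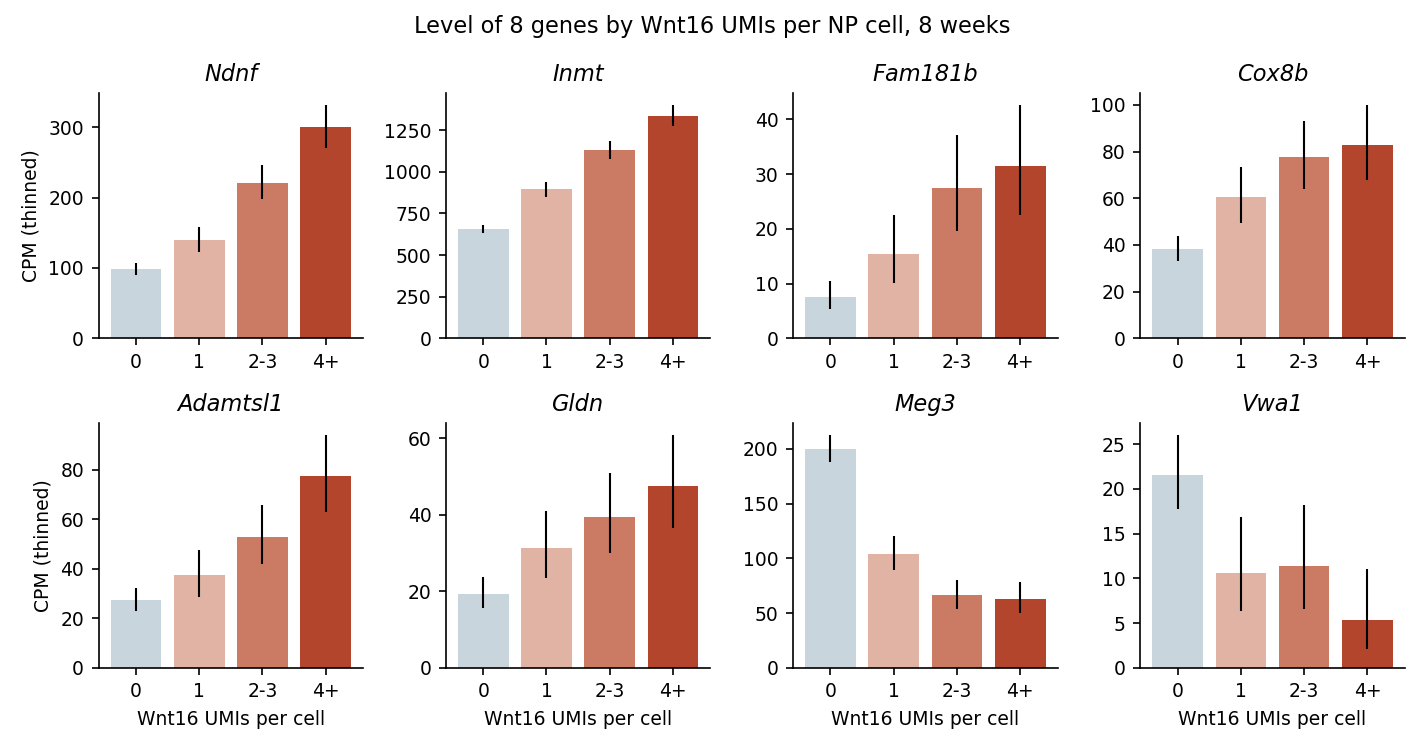
Level of 8 genes in 8-week NP cells grouped by Wnt16 UMIs per cell (x axis: 0, 1, 2-3, 4 or more; 1001, 338, 299 and 261 cells); bars are CPM of counts thinned to 5000 UMIs per cell, lines are 95% Poisson intervals. Ndnf goes up in steps to 300 CPM and Inmt to 1336 CPM, while Meg3 goes down to 62.8 CPM from left to right.

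The 12 genes that stood furthest above the other NP cells, by the interval bound nearer to 1, were Ibsp, Fam181b, Sln, Ndnf, Alpl, Inmt, Adamtsl1, Cox8b, Myl7, Gpr174, Gldn and Fabp5. Inmt, an N-methyltransferase, was at 1102 CPM against 657 CPM (log2 ratio 0.75, 0.68 to 0.81), and was found in 70.9% of Wnt16 cells and 50.4% of other NP cells. It was found in 1.75% of macrophages at full depth. Adamtsl1, a secreted ADAMTS-like matrix protein, was at 54.1 CPM against 27.4 CPM (0.98, 0.68 to 1.30). Cox8b, a cytochrome oxidase subunit of muscle and brown fat, was at 72.6 against 38.2 CPM (0.93), and Myl7, an atrial myosin light chain, at 63.7 against 33.2 CPM (0.94). Gldn (gliomedin, known from nodes of Ranvier), Gpr174 (a lysophosphatidylserine receptor) and Fabp5 (a fatty acid carrier) had log2 ratios of 1.00, 0.95 and 0.92. Inmt, Adamtsl1, Cox8b, Gldn and Fabp5 went up over the 4 Wnt16 groups in order. Sln, Myl7 and Gpr174 did not, and of the 12 lowest genes described next 5 went down in order and 7 did not. Both sets were chosen on these cells, so the steps are a description.

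Ibsp, Alpl and Sln rested on few cells. Ibsp, the mineral-binding bone sialoprotein, had the highest ratio of the 12 (179 CPM against 43.2 CPM, 2.05), but 92.0% of its thinned UMIs in the Wnt16 group came from 10 cells, and it was found in 8.24% of Wnt16 cells against 6.69% of other NP cells. Without the 10 highest cells of each group, Ibsp was at 14.4 CPM against 11.9 CPM, a log2 ratio of 0.28 (-0.26 to 0.81). NP cells with 10 or more Ibsp UMIs numbered 10 in each group, and their median doublet scores were 0.336 in Wnt16 cells and 0.363 in other NP cells, against 0.0351 over either whole group. All 10 such Wnt16 cells also had Alpl UMIs, 6 had Panx3 and 5 had Col10a1, genes of mineralising or hypertrophic cartilage. Alpl (tissue-nonspecific alkaline phosphatase) had 84.3% of its UMIs in 10 cells and a log2 ratio of 0.64 (-0.63 to 1.98) without the highest cells. Sln, encoding the calcium pump inhibitor sarcolipin, had 64.0% in 10 cells, but its ratio without them was 2.07 (1.12 to 3.12), on 10.1 against 2.42 CPM. For Ndnf, Fam181b and Inmt the same step gave 1.28, 2.11 and 0.79.

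The 12 genes furthest below were Meg3, Ltbp4, Mfhas1, Col18a1, Vwa1, Loxl3, Fxyd3, Bmp6, Cpm, Sema4a, Matn4 and Meltf. Meg3, an imprinted long noncoding RNA, was at 79.5 CPM in Wnt16 cells and 200 CPM in other NP cells (log2 ratio -1.33, -1.51 to -1.16) and in 17.1% against 25% of cells. Mirg, from the same imprinted locus and looked at after Meg3 was seen, was at 2.00 against 5.39 CPM (-1.43, -2.70 to -0.30). At full depth Meg3 was in 25.4% of Wnt16 cells and 36.0% of other NP cells, and in 10.5% of macrophages, which had 164 CPM of it. Several of the 12 code for matrix or its partners. Ltbp4, which tethers latent TGF-beta to the matrix, was at 9.13 against 26.4 CPM (-1.53), and Col18a1, the collagen of basement membranes from which endostatin is cut, at 29.6 against 61.9 CPM (-1.06). Vwa1, a pericellular protein of cartilage, had -1.21, Matn4 (matrilin 4) -0.88 and Loxl3 (a collagen cross-linking enzyme) -0.89. Bmp6, a bone morphogenetic protein, was at 8.69 against 19.8 CPM (-1.19). Meltf (melanotransferrin) was at 468 against 747 CPM (-0.68), found in 63.3% against 80.3% of cells. Cpm, the gene of carboxypeptidase M, was found in 46.7% against 61.0% of cells (-0.75).

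**Figure D2:**
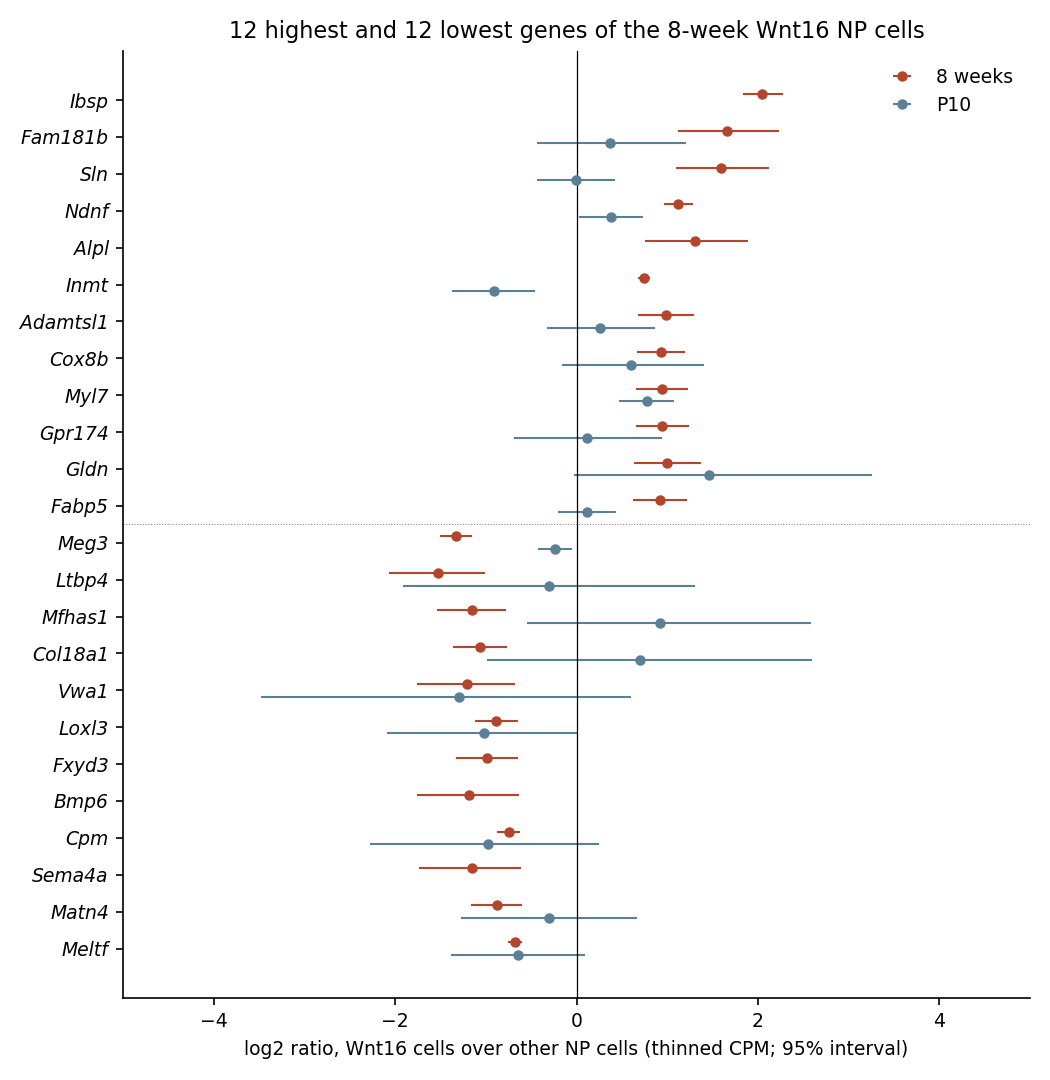
Log2 ratio (x axis) of thinned CPM in Wnt16 over other NP cells for the 12 highest and 12 lowest genes of the 8-week comparison (y axis), at 8 weeks (898 over 1001 cells, red, upper point) and at P10 (128 over 104 cells, blue, lower point); lines are 95% exact intervals, and genes with under 10 P10 UMIs or 0 in a group have no P10 point. Most P10 intervals span 0, and Inmt lies above 0 at 8 weeks (0.75) and below 0 at P10 (-0.91).

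Matrix genes of cartilage and NP leaned lower as a group. For this and the 8-week lists below, the shares over all 7820 genes were 1.24% higher and 1.98% lower. Of 19 listed genes, 17 passed the minimum count, 0 were higher and 3 lower, and their median log2 ratio was -0.26, beside -0.015 over all genes. Those lower were Col11a1 (582 against 911 CPM, -0.65), Bgn (biglycan, 259 against 405 CPM, -0.64) and Matn4. Col2a1, the main cartilage collagen, was at 1758 against 2623 CPM (-0.58, -0.62 to -0.54) and Acan (aggrecan) at 6244 against 7273 CPM (-0.22), both short of 1.5-fold. In the fibrous matrix list 13 of 20 genes passed, 1 was higher, 1 lower, and the median was -0.34. Fn1 (fibronectin), of this list, was at 8134 against 10679 CPM (-0.39). The gene counted as lower was Col3a1 (-0.77) and as higher Lox (lysyl oxidase, 0.92), and in the Wnt16 cells 67% and 76% of their UMIs came from 10 cells.

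The gap in matrix genes shrank with the depth of the cells, although all counts were thinned to the same number. Among cells of 5000 to 12000 UMIs, Col2a1 was at 338 CPM in 235 Wnt16 cells and 1223 CPM in 235 other NP cells (log2 ratio -1.86). Between 12000 and 20000 UMIs it was at 955 against 1722 CPM (-0.85), and over 20000 at 3563 against 4075 CPM (-0.19). Acan had -0.45, -0.25 and -0.04 in the same order. Ndnf, Fam181b and Inmt went the other way: Ndnf had 0.77, 1.24 and 1.53, Fam181b 1.11, 1.73 and 2.38, and Inmt 0.42, 0.72 and 1.00. Fam181b rested on few UMIs, 41 against 19 in the shallowest range and 24 against 6 in the deepest. Its intervals there overlap (0.29 to 1.98 and 1.05 to 3.96), so a change with depth is not shown for it. Ndnf levels themselves were lower in deep cells, at 414 CPM in Wnt16 cells against 243 CPM in other NP cells among the shallowest, and 85.5 against 29.6 CPM among the deepest. Of the 12 highest genes 10 kept their sign in the 3 depth ranges, with Ibsp (-1.65) and Alpl (-2.81) negative in the shallowest, and all 12 lowest did. Both sets were chosen on these same cells, so the kept signs are a description.

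**Figure D3:**
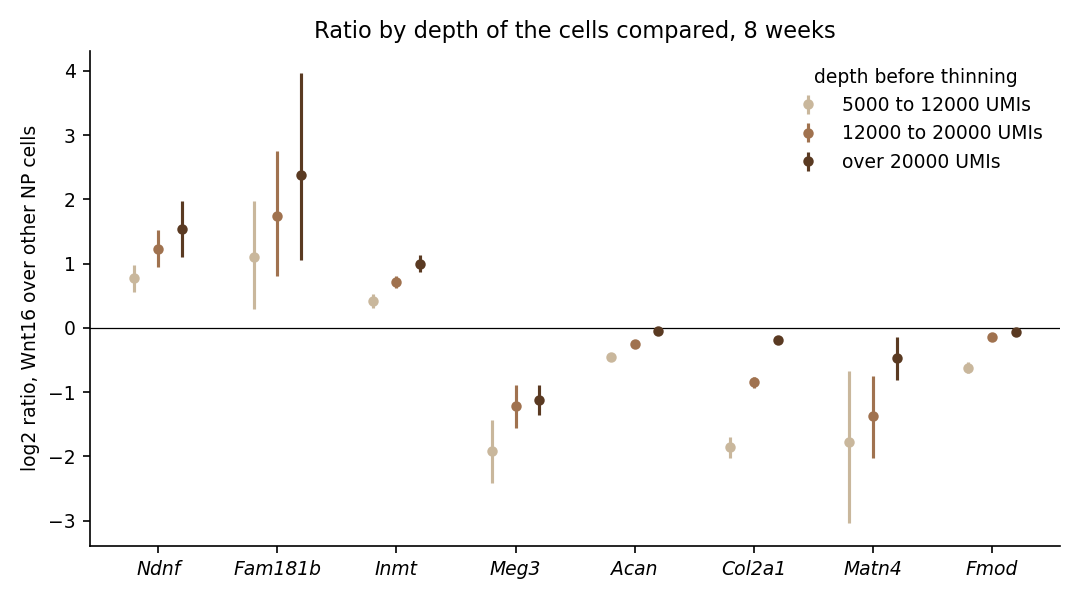
Log2 ratio (y axis) of thinned CPM in Wnt16 over other 8-week NP cells for 8 genes (x axis), by the depth of the cells before thinning (5000 to 12000, 12000 to 20000, over 20000 UMIs; light to dark); lines are 95% exact intervals. Col2a1 goes from -1.86 in the shallowest to -0.19 in the deepest cells, and Ndnf from 0.77 to 1.53.

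Within the Wnt pathway no other ligand was counted as higher. Of 18 further ligand genes 10 had a UMI and 3 passed the minimum: Wnt9a (22.5 against 16.0 CPM, log2 ratio 0.49, 0.06 to 0.93), Wnt4 (0.27, -0.21 to 0.75) and Wnt5b (0.00). Of 20 receptor and secretion genes 8 passed and none was past 1.5-fold, at a median of -0.01; the co-receptors Lrp5 and Lrp6 were at 171 against 173 and 146 against 146 CPM, and Wls, which Wnt proteins need for secretion, at 91.8 against 82.5 CPM (0.15). Secreted inhibitors leaned lower: 5 of 17 passed, 0 were higher, 1 lower (Sfrp5, 12.9 against 20.6 CPM, -0.67), and the median was -0.39. Sostdc1, an inhibitor of Wnt and BMP ligands, was at 867 against 1090 CPM (-0.33, -0.39 to -0.27), found in 78.2% against 85.5% of cells, and Wif1 had -0.39. Of 14 beta-catenin target genes 3 passed, all short of 1.5-fold: Ccnd1 (cyclin D1) -0.10, Myc -0.25 and Cd44 -0.31. Lef1, a nuclear partner of beta-catenin, had 32 UMIs against 11, with 78.1% of the 32 in 10 cells.

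Of other signalling lists, FGF and MAPK feedback genes leaned lowest. Of 18 genes 10 passed, 0 were higher and 2 lower, beside 1.24% and 1.98% over all genes, and the median was -0.39. The receptor Fgfr3 was at 108 CPM in Wnt16 cells and 182 CPM in other NP cells (-0.75, -0.92 to -0.59), in 34.2% against 51.7% of cells, and the transcription factor Etv5 had -0.74. Dusp6, a phosphatase induced by ERK, had -0.43. Of 29 BMP and TGF-beta genes 15 passed, with 1 higher (Bmp2, 73% of whose UMIs in Wnt16 cells came from 10 cells), 1 lower (Bmp6) and a median of -0.03. Of 17 immediate early genes all passed, 0 were higher and 1 lower (Egr2, -0.92), with a median of -0.29; Egr1 was at 1088 against 1369 CPM (-0.33). Unfolded protein response genes had a median of -0.20 with 0 of 10 past 1.5-fold, and Hspa5, the chaperone BiP, was at 327 against 406 CPM (-0.31).

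Junction and transport genes leaned the other way. Of 18 keratin and junction genes outside the rule 8 passed, 2 were higher and 0 lower, beside 1.24% and 1.98% over all genes. All 8 had ratios above 1 (median 0.24). Krt7, a simple-epithelium keratin, was at 43.7 against 25.8 CPM (0.76, 0.43 to 1.09) and Dsc2, a desmosomal cadherin, at 46.3 against 30.2 CPM (0.62). Of 19 connexin and transport genes 11 passed, 0 were higher, 1 lower and the median was 0.27. The gap junction gene Gja1 (connexin 43) was at 836 against 577 CPM (0.54, 0.46 to 0.61), the chloride cotransporter gene Slc12a2 at 942 against 658 CPM (0.52) and the glucose transporter gene Slc2a1 at 488 against 395 CPM (0.31). The gene counted as lower was the osmosensitive channel Trpv4 (39.0 against 62.1 CPM, -0.67). Of 29 neurotrophic and guidance genes 13 passed, with 2 higher, 1 lower (Sema4a) and a median of 0.12. The secreted guidance genes Slit2 (170 against 112 CPM, 0.61) and Ntn4 (0.69) were those higher, and Epha4 had 0.46.

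Contractile genes barely differed at 8 weeks. Of 17 genes 13 passed, 0 were past 1.5-fold and the median was 0.04. Tagln, whose promoter drives the Cre, was at 87.8 CPM in Wnt16 cells and 81.3 CPM in other NP cells (0.11, -0.09 to 0.31), and Acta2 (smooth muscle actin) at 442 against 396 CPM (0.16, 0.07 to 0.25). Energy genes were close too: glycolysis and hypoxia had a median of 0.07 with 1 of 19 higher (Egln3, an oxygen-sensing hydroxylase, 32.3 against 17.6 CPM, 0.88), and oxidative phosphorylation -0.04 with 0 of 17 past 1.5-fold. Hox genes, which carry position along the body axis, had a median of 0.09 with 0 of 9 past 1.5-fold. In the interferon list, which here also holds Inmt, 16 genes passed, with 1 higher (Inmt), 2 lower (Irf9 and Psmb9) and a median of -0.10. The remaining lists had medians between -0.22 and 0.11, other than the list of Dlx, Msx and osteogenic factors (0.64), in which 4 genes passed and the 2 higher were Ibsp and Alpl.

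**Figure D4:**
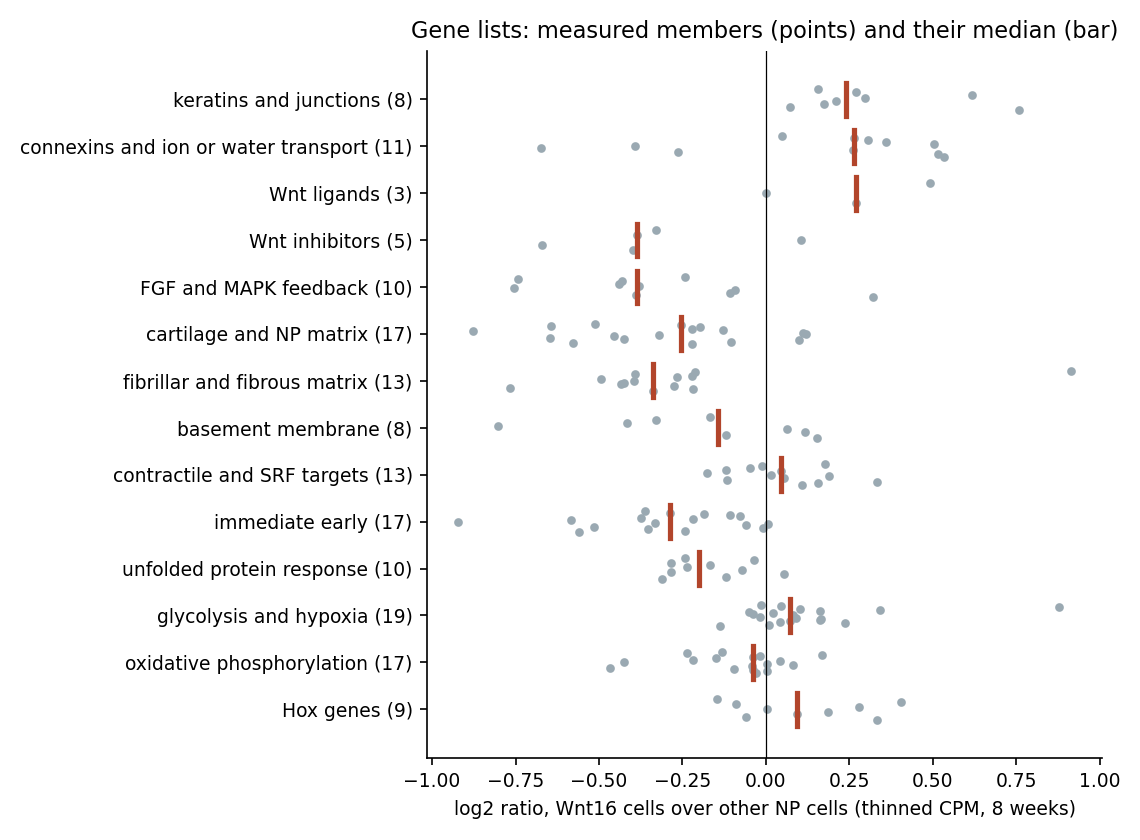
Log2 ratio (x axis) of thinned CPM in Wnt16 over other 8-week NP cells for the measured members (grey points) of 14 gene lists (y axis, number measured in brackets) and their median (red bar). Keratins and junctions lie to the right of 0 (median 0.24), and cartilage matrix (-0.26), FGF (-0.39) and immediate early genes (-0.29) to the left.

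Markers of other cell types were not even between the groups. Endothelial markers summed to 19.2 CPM in Wnt16 cells and 40.6 CPM in other NP cells. Of the 5 genes 3 were lower by their interval, with Cdh5 at 0.4 against 5.8 CPM. At full depth, 2 Wnt16 cells and 13 other NP cells had 10 or more endothelial UMIs. For connective fibroblast markers these numbers were 2 and 12. Over all genes, 8.48% were higher and 11.4% lower by their interval. Annulus chondrocyte markers summed to 284 against 373 CPM, 4 of 5 lower, and connective fibroblast markers to 6.01 against 13.0 CPM (Pi16, Dpp4 and Dpt had 0 UMIs in the Wnt16 cells at full depth, and were at 0, 0.2 and 0 CPM in the other NP cells). Hypertrophic chondrocyte markers summed to 261 against 238 CPM, with 2 of 5 higher. Erythroid markers summed to 698 against 655 CPM (log2 ratio 0.09, 0.02 to 0.16), with 1 of 5 higher and 1 lower. Osteoblast markers summed to 14.5 against 10.4 CPM (0.48, -0.07 to 1.03). Tendon fibroblast markers summed to 2348 against 2732 CPM, nearly all Fmod. Sums of mural, neutrophil and Schwann markers were lower in Wnt16 cells, with intervals that span 1. Macrophage markers were at 16.9 against 18.8 CPM, nearly all Csf1r. The part of such RNA in the ratios was not tested. Without cells with 10 or more UMIs of vessel, blood, nerve, bone or connective markers, 247 genes were past 1.5-fold. When cells with 10 UMIs of any marker list were left out, 192 Wnt16 cells and 176 other NP cells remained, because the tendon list holds Fmod, a gene of NP cells. In those, the log2 ratio was 0.14 for Ndnf, 0.90 for Fam181b, 0.46 for Dlx5 and -0.18 for Inmt.

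The Wnt16 cells overlapped with NP cells marked by other genes. Of 854 NP cells with a UMI of Nrn1 (neuritin), 39.6% had Wnt16, against 50.8% of 1196 without, at median depths of 20361 and 13711 UMIs. Thinned Nrn1 was at 100.2 CPM in Wnt16 cells and 137 CPM in other NP cells (log2 ratio -0.45, -0.62 to -0.28). Of 1465 cells with an Inmt UMI 53.2% had Wnt16, against 28.5% of 585 without. Irf7, an interferon regulator, was at 166 against 127 CPM (0.38, 0.23 to 0.54).

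The exogenous-sequence matrix holds WPRE4, by its name a form of the woodchuck element that reporter cassettes carry at their 3' end, and TDT, the tdTomato reading frame. At full depth both had ratios above 1 in Wnt16 cells, short of 1.5-fold. WPRE4 was at 2848 CPM in Wnt16 cells and 2266 in other NP cells at full depth (log2 ratio 0.33, 0.31 to 0.35), and TDT at 34.6 against 25.5 (0.44, 0.28 to 0.60). After thinning, 63.7% of Wnt16 cells (60.5 to 66.9%) and 50.5% of other NP cells (47.4 to 53.7%) had 10 or more WPRE4 UMIs. At full depth the shares were 67.9% and 54.6%, against 9.47% of 95 endothelial cells at a median of 11119 UMIs and 0 of 57 macrophages. Among the NP cells with 10 or more, the level was 3984 CPM in Wnt16 cells and 4072 in other NP cells. The level went up over the 4 Wnt16 groups (2504, 2808, 3165 and 3391 CPM). The size of the difference varied with the cells compared: it was 0.17 in cells of 10000 to 30000 UMIs and 0.042 (-0.016 to 0.10) in the 192 and 176 cells without 10 UMIs of any other marker list. The ratio of TDT after thinning was 0.31 with an interval that spans 0 (-0.015 to 0.64).

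**Figure D5:**
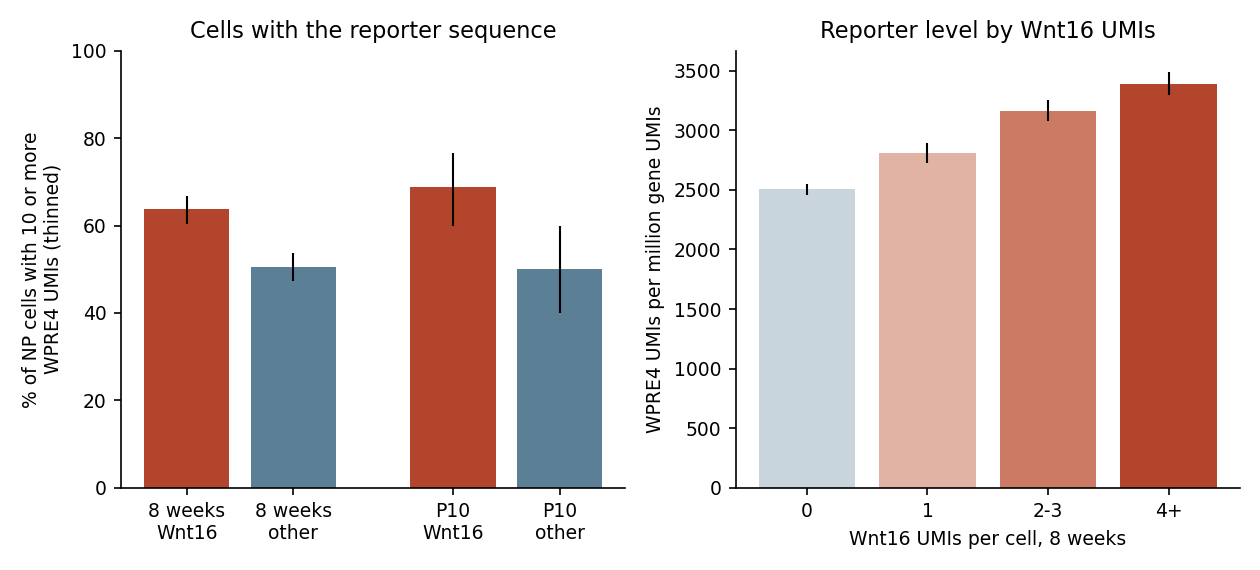
Left, share of NP cells (y axis, %) with 10 or more WPRE4 UMIs after thinning, in Wnt16 (red) and other (blue) cells at 8 weeks and P10, with exact binomial intervals; right, WPRE4 level in CPM (UMIs scaled to the gene UMIs) in 8-week NP cells by Wnt16 UMIs per cell, with 95% Poisson intervals. The share is 63.7% against 50.5% at 8 weeks and 68.8% against 50% at P10.

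The same rule applied at P10, in cells not used to choose the members, gave 132 Wnt16 cells and 112 other NP cells, a share of 54.1% (47.6 to 60.5%). Wnt16 stood at 67.2 CPM over all 8-week NP cells and 72.7 CPM over the 244 P10 ones. The thinned groups held 128 and 104 cells, and of 1475 genes with 100 UMIs, 24 (1.63%) were higher and 44 (2.98%) lower, 68 (4.61%) in all, with 90 (6.1%) above and 134 (9.08%) below 1 by the interval alone. Ndnf was at 275 CPM against 212 CPM (log2 ratio 0.38, 0.03 to 0.74) and was found in 53.1% against 44.2% of cells. Fam181b was at 54.7 against 42.3 CPM (0.37, -0.44 to 1.21). Dlx5 had 9 UMIs in each group. The Ndnf difference was not stable: with Car3 at 10 and keratins at 5 UMIs it was -0.0090 (-0.35 to 0.33), with at least 2 Wnt16 UMIs 0.061 (-0.33 to 0.45), and without cells carrying other marker lists -0.41 (-0.83 to 0.01).

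Of the 12 genes highest at 8 weeks, 11 had 10 UMIs at P10 and 9 of these leaned the same way, 3 with an interval clear of 1: Ibsp (13 UMIs against 0, from 2 cells), Ndnf and Myl7 (447 against 262 CPM, 0.77, 0.47 to 1.08). Inmt lay the opposite way, at 106 against 200 CPM (-0.91, -1.38 to -0.46). Of the 12 lowest, 9 had 10 UMIs and 7 leaned the same way, with Meg3 clear of 1 (717 against 846 CPM, -0.24, -0.43 to -0.05). The median of the 1475 P10 genes was a log2 ratio of -0.013, and by the interval 6.1% lay above 1 and 9.08% below. The counts by sign alone are a description and not a repeat of the 8-week result. Cartilage matrix genes had a median of -0.43 at P10 (12 passed, 0 higher, 4 lower), and 63% to 79% of the Wnt16-cell UMIs of the lower genes, Col9a1, Col9a3, Col11a2 and Comp, came from 10 cells. Fibrous matrix genes lay the other way from 8 weeks, with a median of 0.086 (9 passed, 3 higher, 0 lower). The higher ones were Col1a1, Col1a2 (891 against 388 CPM, 1.20, 0.96 to 1.44) and Dcn (decorin), with 71.5%, 86.0% and 96.7% of their Wnt16-cell UMIs in 10 cells. The tendon marker Tnmd stood at 54.7 against 3.8 CPM beside them, and its part in these ratios was not tested. Sostdc1 was at 805 against 1187 CPM (-0.56, -0.73 to -0.39), and Slc12a2 at 1044 against 754 CPM (0.47). Contractile genes had a median of 0.40 over 13 genes with none past 1.5-fold; Tagln was at 541 against 402 CPM (0.43, 0.18 to 0.68) and Acta2 at 1922 against 1375 CPM (0.48). WPRE4 stood at 3273 against 2354 CPM (0.48, 0.42 to 0.53), and 68.8% against 50% of thinned cells had 10 or more UMIs of it. The difference between the ages was not tested.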

How the data were processed

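The values are UMI counts as deposited, made by the authors with Cell Ranger 3.1.0 per the file headers; genes and added sequences such as WPRE4 come in separate matrices; the build is mm10 (GRCm38) and Seurat 3 is named without a role, per the submitters' processing notes. The other deposited files, barcode and feature lists, hold names without a score. The 8-week matrix held 7597 barcodes and 115097999 UMIs. The libraries shared 10 kept barcodes, 2 of them Wnt16 cells.

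From these, each NP cell was thinned without replacement to 5000 UMIs (seed 7) and thinned counts were summed per group. Ratios got exact conditional binomial intervals (Python 3.11.15, numpy 2.4.6, scipy 1.17.1, pandas 2.3.3). These were tried on simulated group totals without spread between cells, which cannot show how the intervals hold for real cells. Shares have exact Clopper-Pearson and levels exact Poisson intervals of 95%. A share of 0 allows up to 3 counts. UMIs of 1 cell are not independent, so true errors are wider. The 8 genes of the rule were left out of gene counts. Doublets were scored with Scrublet in Scanpy 1.11.5 and were not removed. The comparison cells were held to the same cycling limit as the Wnt16 cells; lifting it is an alternative. Genes named are the 12 highest and 12 lowest by the interval bound nearer to 1, leaving out predicted, sex-linked (Xist, Tsix, Y), hemoglobin, ribosomal and mitochondrial genes, up to 4 members of each list with most UMIs, and a fixed set of markers; further list members past 1.5-fold were named after their values were seen. Members, gene lists and markers were chosen with earlier results of these data known. Alternatives changed the thinning depth, seed, depth range, Wnt16 and NP thresholds, mitochondrial limit, cycling limit, doublet score, marker-carrying cells, centring and minimum count. Some list members are not reported here.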

Additional observations from a re-analysis of the deposited data

Results flagged for a closer look

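Inmt was picked out because its ratio lay clear of 1 in opposite directions at the 2 ages. The log2 ratio of Wnt16 cells over other NP cells was 0.75 at 8 weeks (4948 thinned UMIs against 3286) and -0.91 at P10 (68 against 104), where 53% and 57% of its UMIs came from the 10 highest cells of each group. The difference between the ages was not tested. Among the 8-week cells without 10 UMIs of any other marker list the Inmt ratio was -0.18.

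The CRE entry of the exogenous-sequence matrix was not used in the report's comparisons and held 4 UMIs in the kept 8-week cells and 7 in the kept P10 cells, over the 3 counts that a count of 0 allows. Of the 8-week UMIs, 1 was in a Wnt16 cell and 3 in other NP cells. EGFP had 0 UMIs at either age.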

How the results depend on the processing

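No paired analysis was possible because each age has 1 matrix with no map from cells to samples, and for the same reason no replicate could be left out. Cells with at least 2 Wnt16 UMIs were 28.2% of all 2050 NP cells. The Wnt16 share was 26.4% of the thinned cells when Wnt16 was called after thinning. It was 43.5% with cycling cells added, 52.2% without cells with 10 UMIs of any other marker list and 43.4% in cells over 20000 UMIs. Wherever cycling cells were added, all 127 joined the other NP cells, including the 29 with Wnt16. Genes past 1.5-fold, 252 in the main comparison, numbered 148 at 2000 UMIs, 402 without thinning and 520 with Wnt16 called after thinning. They numbered 437 with cycling cells added, 147 in cells over 20000 UMIs, and 399 and 634 with minimum counts of 50 and 10. Without cells of any other marker list there were 36 among 1699 genes tested. That comparison began with 192 Wnt16 cells and 176 other NP cells, and those under 5000 UMIs were then left out. The WPRE4 log2 ratio, 0.33, was 0.25 and 0.22 when thinned to 2000 and 10000 UMIs, 0.30 when thinned to 5000 UMIs with another seed, 0.17 in cells of 10000 to 30000 UMIs, 0.38 with Wnt16 at 2 UMIs, 0.39 with Wnt16 called after thinning, 0.36 with the wider NP rule, 0.38 with cycling cells added, 0.042 without cells of any other marker list, 0.30 without vessel, blood, nerve, bone or connective markers and 0.39 over 20000 UMIs. The P10 ratio of Ndnf turned to -0.0090 with the wider NP rule and -0.41 without cells of any other marker list; full-depth P10 ratios were 0.35 for Ndnf, 0.60 for Fam181b and 0.53 for Dlx5.

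Of the 24 named genes, 19 kept their direction under every alternative that gave a value. These 24 were the extremes of the main comparison and the alternatives reuse its cells, so kept directions are a description. Of 28 lists, 12 kept the sign of their median. Among lists that did not, the Dlx, Msx and osteogenic median ranged from -0.16 to 0.92, the neurotrophic and guidance median from -0.12 to 0.30 and the BMP and TGF-beta median from -0.44 to 0.12. Without cells of any other marker list, Ibsp turned to -0.22, Inmt to -0.18, Adamtsl1 to -0.11, Mfhas1 to 0.20, Fgfr3 to 0.0073, the fibrous matrix median to 0.072 and the immediate early median to 0.076. In cells over 20000 UMIs Sln turned to -0.32 and Sfrp5 to 0.056. The median of the proposed progenitor markers (3 genes) turned to 0.031 at 10000 UMIs and 0.075 with Wnt16 at 2 UMIs. The causes were not tested. The alternatives over 20000 UMIs, without Ibsp-rich cells, without the 10 highest cells and with the narrower marker lists were chosen after seeing the data. A single Wnt16 UMI decides membership, and genes under 100 thinned UMIs were not compared.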
